A study of Homo sapiens with 8 samples.

Results

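The genes described here are 39 genes of autophagy and the lysosome, taken as a fixed list of gene symbols that ran from the kinase starting an autophagosome to the hydrolases and proton pump of the lysosome. All 39 symbols matched an identifier among the 58884 genes of the deposited count table, and 38 of them had enough reads to be tested beside 14741 genes in all. ULK2, an initiation kinase, was the exception, with 2 counts in the whole series, both in DMSO replicate 2. A further 124 genes of the same pathways, of which 115 could be tested, serve as a wider picture. The list uses no measured value, but it and the wider genes were chosen with earlier results of these data known.

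The study sequenced ribosomal-RNA-depleted total RNA from U87, an established human glioblastoma cell line, in 4 groups of 2 libraries each. The first group, called the combination below, was labelled as long-term AsiDNA together with belinostat, the second received belinostat alone, the third long-term AsiDNA alone, and the fourth the solvent DMSO. Belinostat, an inhibitor of histone deacetylases, was given at 1 µM for 24 h, whereas neither the dose nor the duration of AsiDNA was given. AsiDNA is a short DNA duplex that imitates a broken chromosome end and occupies repair enzymes. All groups shared the line and the serum-containing medium. The protocols name cells called MTU87 and LTAU87 but do not tie these names to groups, and nothing says that the 2 libraries of a group came from separate cultures, so p-values measure only the spread between these libraries, which may be technical.

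In autophagy, an initiation kinase and a lipid kinase prepare a membrane, which grows around its cargo while small ubiquitin-like ATG8 proteins are joined to its lipids. Cargo receptors hold what is to be degraded against the ATG8 proteins, and the closed autophagosome then fuses with a lysosome, whose proton pump, the V-ATPase, acidifies the interior in which cathepsins and other hydrolases work. Many of these genes are known targets of the MiT/TFE transcription factors TFEB, TFE3 and MITF, which bind an E-box in promoters and are held in the cytoplasm while mTORC1 at the lysosome is active.

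Total counts ran from 6057394 to 9699637 per library. Levels are given as CPM, the counts of a gene scaled to a common library size with TMM factors, and 3 counts amounted to 0.292 to 0.506 CPM. The glioma markers VIM and CD44 were abundant. VIM stood at 3978 CPM in the combination, 1420 in belinostat, 5920 in AsiDNA and 4493 in DMSO. CD44 stood at 2388, 1634, 1521 and 1642 CPM in the same order of groups, and SOX9 at 13.6, 9.95, 5.75 and 4.12. The astrocyte markers GFAP and S100B had at most 8 counts in any group. Among markers of other cell types, PTPRC, AIF1, CX3CR1, STMN2, RBFOX3 and CDH5 had 0 or 1 count in each group, while the summed neuron markers, from SNAP25 and SYP, lay at 151 to 160 CPM in the combination, 164 to 181 in belinostat, 36.0 to 40.1 in AsiDNA and 37.2 to 56.5 in DMSO. The leukocyte list, in which CSF1R was the 1 gene of 4 with enough reads, summed to 2.43 to 2.50 CPM in the combination, 2.81 to 3.21 in belinostat, 13.1 to 13.5 in AsiDNA and 17.0 to 17.7 in DMSO, and the endothelial list, with PECAM1, to 13.5 to 16.5, 19.4 to 23.5, 3.74 to 6.10 and 5.14 to 5.15 in the same 4 groups. KRT8 was the 1 tested gene of the 3 epithelial markers. Their sum lay at 2.30 to 2.33 CPM in the combination and 1.75 to 1.86 in belinostat. It was 1.085 to 1.74 in AsiDNA and 0.81 to 0.97 in DMSO. The DMSO libraries differed more than any other pair, with 11.1% of 8142 well-expressed genes more than 1.5-fold apart, against 0.540% in the combination, 0.786% in belinostat and 0.184% in AsiDNA. The nuclear RNAs MALAT1 and NEAT1 took 3.12% and 2.06% of counts in the combination, 12.2% and 13.4% in belinostat, 0.753% and 0.688% in AsiDNA, and 0.911% and 2.82% in DMSO. The part of these differences between libraries in the results was not tested. In bulk RNA, fewer cells that express a gene and less of its RNA per cell cannot be told apart.

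The 39 genes together took more of the RNA in the combination than in any other group. Their share of all counts was 0.521% and 0.532% in the combination, 0.426% and 0.394% in belinostat, 0.372% and 0.372% in AsiDNA, and 0.358% and 0.327% in DMSO. The 4 groups did not overlap in this share. With the combination set against DMSO, 28 of the 38 tested genes rose and 0 fell, where 48.1% of all tested genes were called, 24.3% higher and 23.7% lower (edgeR's quasi-likelihood test, Benjamini-Hochberg adjusted p under 0.05). Against AsiDNA alone 27 rose and 1 fell in the combination, beside 42.9% of all genes, 21.7% higher and 21.2% lower. Belinostat alone raised 19 and lowered 3 of the 38 relative to DMSO, beside 57.4% of all genes, 29.8% higher and 27.6% lower. The combination against belinostat alone gave 18 higher and 5 lower, beside 43.4% of all genes, 22% higher and 21.4% lower. For AsiDNA alone against DMSO, 0 of the 38 were called by edgeR, beside 0.0204% of all genes, and 0 by DESeq2, beside 28 of all genes. At an unadjusted p under 0.05 in edgeR there were 4 of the 38, beside 1674 of all 14741 genes.

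**Figure D1:**
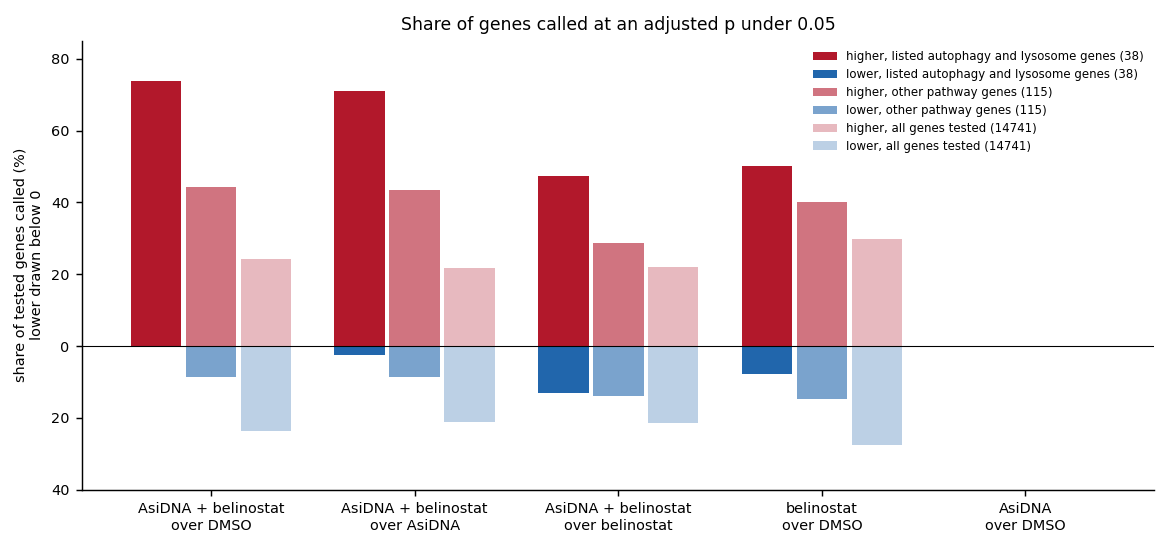
Share of tested genes called at an adjusted p under 0.05 in each comparison (y axis, percent; called higher above 0, called lower below 0), for the 38 listed genes, the 115 other pathway genes and all 14741 genes. In the combination against DMSO 28 of the 38 listed genes were higher and 0 lower, while the shares of all genes were nearly balanced at 24.3% and 23.7%.

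The median log2 fold change of the 38 genes was 0.76 in the combination against DMSO, beside -0.01 over all genes, and 0.69 against AsiDNA, beside 0.02. It was 0.33 for the combination against belinostat, beside -0.01, 0.38 for belinostat against DMSO, beside 0.06, and 0.10 for AsiDNA against DMSO, beside 0.03. The comparisons with DMSO share its 2 libraries, and those of the combination share the combination's. Scaling by library size alone, which puts the median of all genes at -0.20 for the combination against DMSO and at -0.08 for belinostat against DMSO, gave 25 higher and 3 lower in place of 28 and 0, and 16 higher and 5 lower in place of 19 and 3. Of the 28 genes called in the combination against AsiDNA, 20 were called under each of the other scalings, filters and tests that were run and without any single library, and the same number, 20 of 28, held in that way against DMSO.

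The MiT/TFE factors themselves differed from one another. MITF, which is best known as the master factor of melanocytes, stood at 45.5 and 43.2 CPM in the combination, 38.8 and 39.3 in belinostat, 11.9 and 18.7 in AsiDNA, and 15.4 and 14.2 in DMSO. All 4 libraries with belinostat lay above all 4 without it. MITF rose 2.91-fold in the combination over AsiDNA (log2 1.54, SE 0.19, adjusted p = 2.56e-05, edgeR) and 2.64-fold in belinostat over DMSO (log2 1.40, SE 0.18, adjusted p = 2.78e-05), and these calls held without any single library. TFEB, the factor most often tied to lysosome genes, was scarce, at 2.33 and 4.22 CPM in the combination, 3.39 and 4.56 in belinostat, 2.05 and 1.16 in AsiDNA, and 2.02 and 1.65 in DMSO. Its fold change of belinostat over DMSO was called (log2 1.10, SE 0.43, adjusted p = 0.0411). That of the combination over AsiDNA was not called with all libraries and TMM (log2 1.02, SE 0.46, adjusted p = 0.0882, edgeR). It was called with only the groups compared (0.0281, edgeR) and without either DMSO library. The first call was lost under DESeq2 and 4 other settings (adjusted p = 0.0583 to 0.182) and without DMSO replicate 2, AsiDNA replicate 1 or any 1 of the 4 libraries with belinostat (0.0504 to 0.255).

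TFE3, the third of these factors, was the most abundant of them per kilobase of exon. It had 72.4 and 77.2 CPM in the combination, 65.2 and 56.0 in belinostat, 92.1 and 88.7 in AsiDNA, and 89.3 and 75.0 in DMSO. TFE3 thus fell in belinostat relative to DMSO (log2 -0.43, SE 0.13, adjusted p = 0.0138), a call that was lost without belinostat replicate 2 (adjusted p = 0.054), and in the combination its difference from AsiDNA was not called (log2 -0.27, adjusted p = 0.118). With library size alone and with only the groups compared, TFE3 was called lower in the combination than in AsiDNA (adjusted p = 0.00546 to 0.0139, edgeR). It was called lower without either DMSO library as well. This log2 difference lay between -0.35 and -0.23 when each library was left out in turn. Levels per kilobase in the combination were 17.5 CPM for TFE3, 6.17 for MITF and 0.580 for TFEB, while in DMSO they were 19.2 for TFE3, 2.06 for MITF and 0.325 for TFEB.

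Because these factors bind an E-box, promoters were searched for CACGTG and for the longer TCACGTGA, which contains it and resembles the element that TFEB and TFE3 bind. Both words read the same on either strand, and every match to the longer one is also a match to the shorter. RefSeq promoter windows on GRCh38.p14, running from 250 bases before to 50 after the start, were found for 33 of the 39 genes. CACGTG lay in the windows of 6 of these 33 genes (18.2%), of 24 of 92 other pathway genes (26.1%) and of 2396 of 27305 genes of the table (8.77%). TCACGTGA lay in 4 of the 33 (12.1%), 8 of the 92 (8.7%) and 321 of the 27305 (1.18%). The 6 genes with a match are ATG14, ATP6V0D1, CTSA, CTSD, LAMP1 and MCOLN1, and the stretches that hold their E-boxes are shown, because the genes that carry them are described next. They run 5′ to 3′ on the strand of the gene, with each whole CACGTG in capitals.
ATG14: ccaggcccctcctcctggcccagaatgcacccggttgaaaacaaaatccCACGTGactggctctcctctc
ATP6V0D1: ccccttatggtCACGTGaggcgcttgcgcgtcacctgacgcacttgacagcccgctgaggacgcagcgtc
CTSA: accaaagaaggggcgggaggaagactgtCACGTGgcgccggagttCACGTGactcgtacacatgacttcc
CTSD: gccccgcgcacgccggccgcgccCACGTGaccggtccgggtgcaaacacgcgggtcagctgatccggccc
LAMP1: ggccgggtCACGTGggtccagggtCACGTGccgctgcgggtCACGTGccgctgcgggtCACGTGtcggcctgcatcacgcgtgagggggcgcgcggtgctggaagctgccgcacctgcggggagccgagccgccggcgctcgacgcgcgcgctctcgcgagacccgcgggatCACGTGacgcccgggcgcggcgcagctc
MCOLN1: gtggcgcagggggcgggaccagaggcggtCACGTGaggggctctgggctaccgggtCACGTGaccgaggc
The LAMP1 stretch holds 5 whole matches, and a further match crosses the start and lies partly outside it. ATP6V0D1, CTSA, LAMP1 and MCOLN1 hold the longer word, in which the capitals have a t before them and an a after them. These stretches are chr14:55411831-55411900 on the minus strand for ATG14, chr16:67481158-67481227 on the minus strand for ATP6V0D1, chr20:45891265-45891334 on the plus strand for CTSA, chr11:1763928-1763997 on the minus strand for CTSD, chr13:113297039-113297238 on the plus strand for LAMP1 and chr19:7522554-7522623 on the plus strand for MCOLN1. A match describes the letters only and is neither a bound site nor a cause.

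All 6 genes with an E-box rose in the combination over both AsiDNA and DMSO, except ATG14, whose difference from DMSO was not called (adjusted p = 0.0583). Of the 26 tested genes of the list whose window lacks CACGTG, 16 rose and 1 fell over AsiDNA. Leaving out single libraries ended the call over AsiDNA of ATG14, CTSA, LAMP1 and MCOLN1 among the 6. It also ended those of ATG5, BECN1 and GABARAP among the 16. ATP6V0D1 and CTSD kept theirs under each other setting and without any single library. Among the other pathway genes 6 of 24 with the word rose and 2 fell, ULK3 and ARSB, while 26 of 60 without it rose and 6 fell. Over all tested genes with a window, 22.3% of the 1303 with the word and 23.5% of the 9152 without it were called higher over AsiDNA. LAMP1, a major glycoprotein of the lysosomal membrane, had 397 and 412 CPM in the combination, 195 and 169 in belinostat, 263 and 264 in AsiDNA, and 243 and 159 in DMSO. The combination libraries stood apart above all others, while those of belinostat lay within the range of DMSO. LAMP1 rose 2.22-fold in the combination over belinostat (log2 1.15, SE 0.17, adjusted p = 0.000445) and 2.02-fold over DMSO (log2 1.01, SE 0.17, adjusted p = 0.000254). Its rise over AsiDNA was 1.54-fold (log2 0.62, SE 0.17, adjusted p = 0.00819), and that call was lost without either AsiDNA library or without combination replicate 2 (0.0597 to 0.0741). For belinostat over DMSO the log2 difference of LAMP1 was -0.14 (adjusted p = 0.495), and it was 0.19 without DMSO replicate 1 and -0.44, a called fall, without DMSO replicate 2.

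CTSD, an aspartic cathepsin of the lysosome, showed the same order. It had 185 and 168 CPM in the combination, 91.1 and 67.3 in belinostat, 93.2 and 103 in AsiDNA, and 92.3 and 70.2 in DMSO. Again the combination alone lay apart, with the other 6 libraries between 67.3 and 103 CPM. CTSD rose 2.21-fold in the combination over belinostat (log2 1.15, SE 0.16, adjusted p = 0.000417), 1.80-fold over AsiDNA (log2 0.85, adjusted p = 0.000885) and 2.17-fold over DMSO (log2 1.12, adjusted p = 9.44e-05), and these calls held without any single library. In belinostat against DMSO its log2 difference was -0.03 (adjusted p = 0.89). An unnamed gene shares exon sequence with CTSD on the same strand, so its counts may include reads of that gene.

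The other lysosome membrane genes were also raised. NPC1, which exports cholesterol from the lysosome, had 296 and 304 CPM in the combination, 377 and 337 in belinostat, 180 and 179 in AsiDNA, and 173 and 170 in DMSO. Here belinostat alone gave the highest level, 2.09-fold over DMSO (log2 1.06, SE 0.12, adjusted p = 5.34e-06), and the combination stood 1.67-fold over AsiDNA (log2 0.74, SE 0.12, adjusted p = 0.000187). LAMP2, the partner of LAMP1 that also serves in chaperone-mediated autophagy, was highest in the combination, like LAMP1. Its log2 fold changes there were 0.73 over AsiDNA, 0.62 over belinostat and 0.93 over DMSO, all called. In belinostat over DMSO the value of LAMP2 was 0.30 and not called (adjusted p = 0.0594, edgeR), where that of LAMP1 was -0.14. MCOLN1, the calcium channel of the lysosome, was low, between 11.2 and 19.4 CPM over all libraries. Its rise in the combination over AsiDNA (log2 0.52, adjusted p = 0.0318) was lost without either AsiDNA or either combination library (0.073 to 0.221).

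Among the 6 hydrolases, 3 rose in the combination over AsiDNA, 1 fell and 2 were not called. Of all genes 21.7% were called higher there and 21.2% lower. CTSB, a cysteine cathepsin, had the highest level per kilobase of all 39 genes in every group, at 132.5 CPM per kilobase in the combination, 89.6 in belinostat, 73.8 in AsiDNA and 61.1 in DMSO. It rose in the combination over AsiDNA (log2 0.84, adjusted p = 0.000309) and in belinostat over DMSO (log2 0.55, adjusted p = 0.00416), and this second call was lost without belinostat replicate 1 (0.0966). CTSA, which protects other hydrolases, rose in the combination by 0.43 over AsiDNA and 0.42 over belinostat on the log2 scale, the first call being lost without any 1 of its 4 libraries (0.064 to 0.116) and the second without belinostat replicate 2 or combination replicate 2 (0.0619 to 0.0711). CTSL, another cysteine cathepsin, was the only one of the 38 called lower in the combination relative to AsiDNA in the fit of all libraries with TMM. TFE3 was called lower there as well with library size alone, with only the groups compared and without either DMSO library. CTSL was singled out after its values were seen.

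CTSL had 90.6 and 95.2 CPM in the combination, 65.8 and 61.6 in belinostat, 130 and 132 in AsiDNA, and 108 and 112 in DMSO. The 4 groups did not overlap, with belinostat lowest and AsiDNA highest. The fall was 0.50 on the log2 scale in the combination relative to AsiDNA (SE 0.12, adjusted p = 0.00341) and 0.78 in belinostat relative to DMSO (SE 0.12, adjusted p = 8.13e-05), and both calls held without any single library. GLA and HEXA, which cleave sugars from lipids, were not called in the combination relative to AsiDNA. HEXA fell by 0.59 in the combination relative to belinostat (adjusted p = 0.00764), a call lost without any 1 of the 4 libraries with belinostat (0.0562 to 0.103).

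All 4 subunits of the V-ATPase on the list rose in the combination over AsiDNA and over DMSO. ATP6V1A, the subunit that hydrolyses ATP, had 402 and 416 CPM in the combination, 232 and 182 in belinostat, 159 and 146 in AsiDNA, and 149 and 91.8 in DMSO. Its rise of the combination over DMSO, 3.39-fold, was the largest of the 38 (log2 1.76, SE 0.19, adjusted p = 8.13e-06), and it rose 2.68-fold over AsiDNA (log2 1.42, adjusted p = 5.15e-05) and 1.97-fold over belinostat (log2 0.98, adjusted p = 0.00149). The smaller rise in belinostat over DMSO (log2 0.78, SE 0.19, adjusted p = 0.00299) was lost without belinostat replicate 1 (0.0872). ATP6V0D1, which links the membrane part of the pump to its catalytic part, had 162 and 151 CPM in the combination, 87.7 and 86.9 in belinostat, 68.1 and 80.6 in AsiDNA, and 72.1 and 50.6 in DMSO. The combination was again alone on top, 2.10-fold over AsiDNA (log2 1.07, SE 0.16, adjusted p = 0.000117) and 1.79-fold over belinostat (log2 0.84, adjusted p = 0.00134).

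ATP6V0A1, a membrane subunit that decides where the pump is placed, took the other pattern. It had 66.4 and 59.2 CPM in the combination, 102 and 84.1 in belinostat, 31.2 and 26.1 in AsiDNA, and 28.2 and 34.6 in DMSO. Both groups with belinostat lay above both without it, and belinostat alone lay highest. The rise was 2.98-fold in belinostat over DMSO (log2 1.57, SE 0.16, adjusted p = 2.47e-06) and 2.18-fold in the combination over AsiDNA (log2 1.13, SE 0.16, adjusted p = 9.34e-05). In the combination it was lower than in belinostat (log2 -0.58, SE 0.15, adjusted p = 0.00874), a call lost without belinostat replicate 1 or combination replicate 2 (0.143 to 0.16). ATP6V1H, a regulatory subunit, rose by 0.56 over AsiDNA in the combination on the log2 scale, which was lost without AsiDNA replicate 2 or combination replicate 2 (0.0869 to 0.144).

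**Figure D2:**
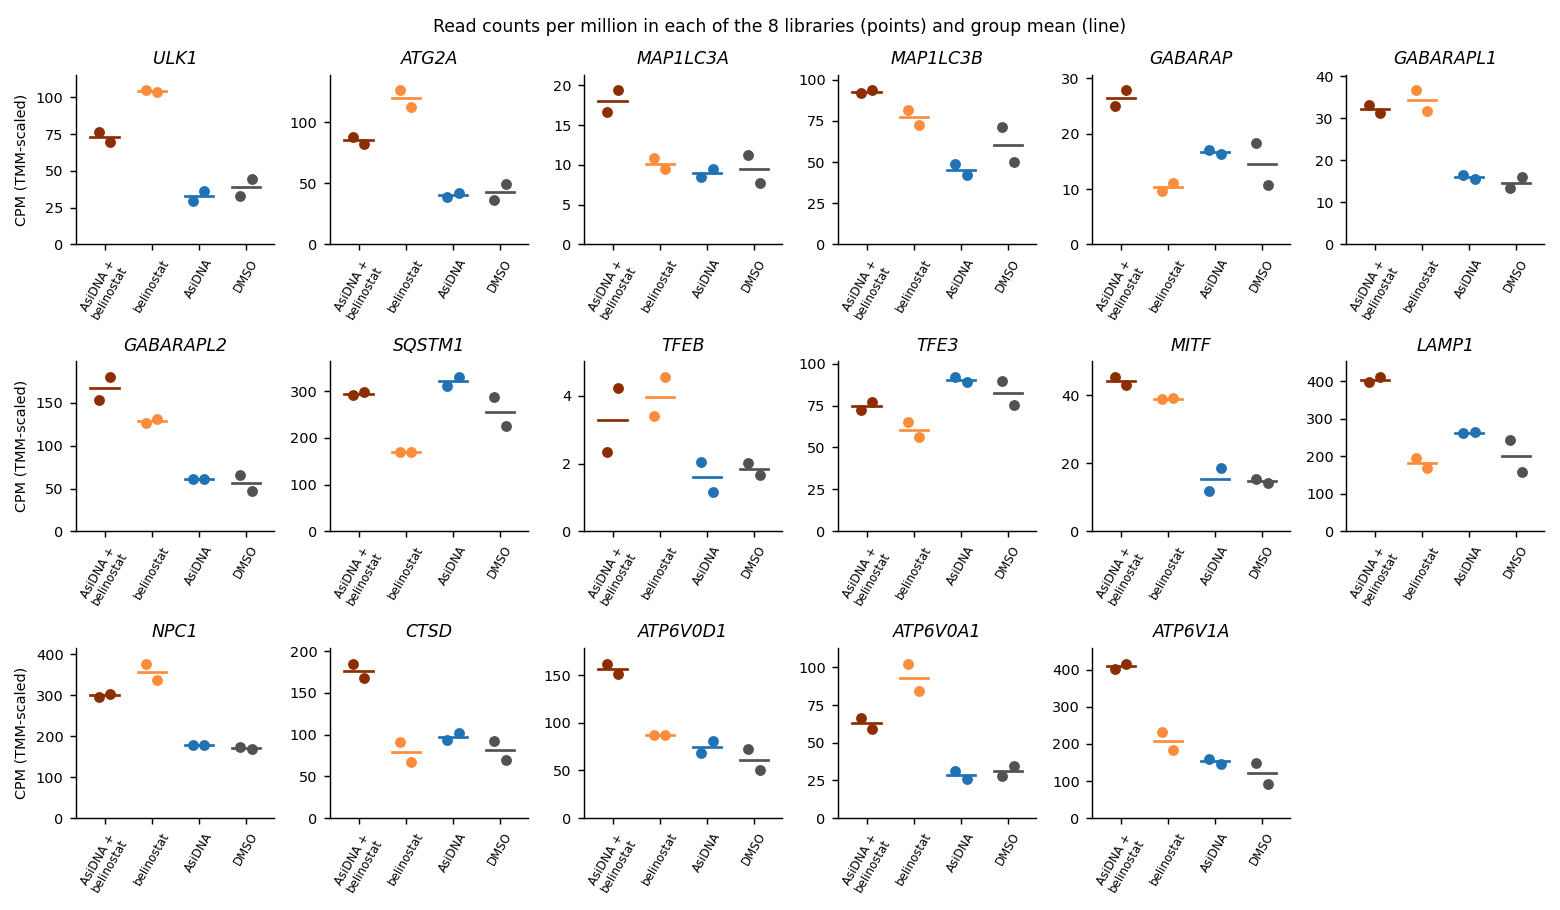
CPM (y axis, from 0, scaled by TMM factors) of 17 of the listed genes in each library (points) and the mean of each group (lines). LAMP1, CTSD, ATP6V0D1, ATP6V1A and GABARAP were highest in the combination, while ULK1, ATG2A, NPC1 and ATP6V0A1 were highest in belinostat alone.

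Every ATG8 gene on the list rose in the combination over AsiDNA and over DMSO. GABARAPL2 had 153 and 180 CPM in the combination, 127 and 132 in belinostat, 61.5 and 61.0 in AsiDNA, and 65.5 and 46.6 in DMSO. Belinostat raised it in both settings, 2.73-fold in the combination over AsiDNA (log2 1.45, SE 0.16, adjusted p = 9.13e-06) and 2.31-fold in belinostat over DMSO (log2 1.21, SE 0.16, adjusted p = 2.26e-05). GABARAPL1, its close relative, had 33.1 and 31.3 CPM in the combination, 36.7 and 31.7 in belinostat, 16.5 and 15.5 in AsiDNA, and 13.4 and 16.0 in DMSO. The groups with and without belinostat separated here as well, with fold changes of 2.01 for the combination over AsiDNA (log2 1.00, SE 0.16, adjusted p = 0.000278) and 2.33 for belinostat over DMSO (log2 1.22, SE 0.16, adjusted p = 2.83e-05).

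MAP1LC3B, which encodes the LC3B protein used as the standard marker of autophagosomes, had 91.8 and 93.7 CPM in the combination, 81.7 and 72.7 in belinostat, 48.6 and 42.3 in AsiDNA, and 71.2 and 49.9 in DMSO. It was lowest in AsiDNA, and there both libraries lay below the other 6. The rise was 2.04-fold in the combination over AsiDNA (log2 1.03, SE 0.16, adjusted p = 0.000218) and 1.53-fold over DMSO (log2 0.61, SE 0.16, adjusted p = 0.00609), the second call being lost without combination replicate 2 (0.0538). For belinostat over DMSO the log2 difference was 0.36 (adjusted p = 0.0723), and without DMSO replicate 1 it was called at 0.63. MAP1LC3A, the LC3A gene, was lower, at 16.7 and 19.4 CPM in the combination, 10.9 and 9.45 in belinostat, 8.44 and 9.44 in AsiDNA, and 11.2 and 7.77 in DMSO.

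Both combination libraries of MAP1LC3A lay above the other 6, whose ranges overlapped. It rose 2.03-fold over AsiDNA (log2 1.02, SE 0.22, adjusted p = 0.00244) and 1.77-fold over belinostat (log2 0.82, SE 0.22, adjusted p = 0.00996), the second call being lost without belinostat replicate 2 or combination replicate 2 (0.0608 to 0.0798). GABARAP, the founding gene of its subfamily, had 25.0 and 27.9 CPM in the combination, 9.59 and 11.1 in belinostat, 17.0 and 16.3 in AsiDNA, and 18.2 and 10.7 in DMSO. The rise of GABARAP over belinostat was 2.56-fold (log2 1.36, SE 0.24, adjusted p = 0.000908), the largest of the 38 in that comparison, and held without any single library. Over AsiDNA it was 1.59-fold (log2 0.67, SE 0.22, adjusted p = 0.0264), which was lost without either AsiDNA or either combination library (0.0626 to 0.167), with scaling by library size alone (0.0585) and under DESeq2 (0.0679).

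Upstream of the ATG8 proteins, ULK1 and ATG2A had the largest rises in belinostat over DMSO and in the combination over AsiDNA, whereas in the combination over DMSO ATG9A had the largest (log2 1.15). ULK1, the initiation kinase, had 76.6 and 69.7 CPM in the combination, 105 and 104 in belinostat, 29.3 and 36.0 in AsiDNA, and 33.2 and 44.5 in DMSO. Belinostat alone gave the highest level, the combination the next, and the groups without belinostat overlapped. ULK1 rose 2.69-fold in belinostat over DMSO (log2 1.43, SE 0.16, adjusted p = 5.55e-06) and 2.24-fold in the combination over AsiDNA (log2 1.17, SE 0.16, adjusted p = 7.05e-05). In the combination it was lower than in belinostat (log2 -0.52, SE 0.15, adjusted p = 0.0157), but leaving out any 1 of these 4 libraries ended that call (0.0827 to 0.191). ATG13, which binds ULK1, was not called in the combination over AsiDNA (log2 0.33, adjusted p = 0.054).

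ATG2A, which moves lipids into the growing membrane, had 88.1 and 82.4 CPM in the combination, 126 and 113 in belinostat, 38.7 and 41.8 in AsiDNA, and 36.1 and 49.2 in DMSO. The order of the groups was that of ULK1. It rose 2.80-fold in belinostat over DMSO (log2 1.49, SE 0.15, adjusted p = 2.98e-06) and 2.12-fold in the combination over AsiDNA (log2 1.08, SE 0.15, adjusted p = 9.03e-05). Its lower level in the combination than in belinostat (log2 -0.49, SE 0.15, adjusted p = 0.0172) was likewise lost without any 1 of these 4 libraries (0.0731 to 0.196). ATG9A, the scramblase that seeds the membrane, and WIPI1 and WIPI2, which read the lipid PI3P, rose in the combination over AsiDNA by 0.71 to 0.88 on the log2 scale. Both members of the lipid kinase complex, BECN1 and ATG14, were called as well at 0.38 and 0.60, but the BECN1 call was lost without either library of AsiDNA, belinostat or the combination (0.0623 to 0.292) and the ATG14 call without AsiDNA replicate 2 or combination replicate 1 (0.053 to 0.0795).

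Of the 5 listed genes of the machinery that conjugates ATG8 proteins to lipid, ATG5 alone was called in the combination over AsiDNA (log2 0.38, adjusted p = 0.0223). It lost the call without any 1 of the 4 libraries of that comparison, in which 21.7% of all genes were called higher and 21.2% lower. In belinostat over DMSO 29.8% of all genes were called higher and 27.6% lower. There ATG4B, the protease that trims ATG8 proteins, ATG5 and ATG7 were called at log2 values of 0.73, 0.42 and 0.53. ATG4B kept this call without any single library, ATG5 lost it without either belinostat or either combination library (0.0509 to 0.131), and ATG7 lost it without belinostat replicate 2 (0.0805). ATG4B was lower in the combination than in belinostat (log2 -0.60, adjusted p = 0.00434), which did not hold without belinostat replicate 2 or combination replicate 2 (0.0519 to 0.0902). ATG12 and ATG16L1 were called in none of the comparisons.

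The cargo receptors divided. SQSTM1, which encodes p62, had 291 and 299 CPM in the combination, 170 and 169 in belinostat, 311 and 331 in AsiDNA, and 287 and 225 in DMSO. Both belinostat libraries lay below the other 6, and the combination lay between DMSO and AsiDNA, overlapping neither AsiDNA library. SQSTM1 fell by 0.59 on the log2 scale in belinostat relative to DMSO (SE 0.13, adjusted p = 0.00168) and rose 1.74-fold in the combination over belinostat (log2 0.80, SE 0.13, adjusted p = 0.000726), and both calls held without any single library. NBR1, a relative of p62, rose in the combination over AsiDNA and belinostat (log2 0.75 and 0.69), and OPTN, a receptor for damaged mitochondria, rose in the combination over AsiDNA and in belinostat over DMSO (log2 0.67 and 0.70).

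**Figure D3:**
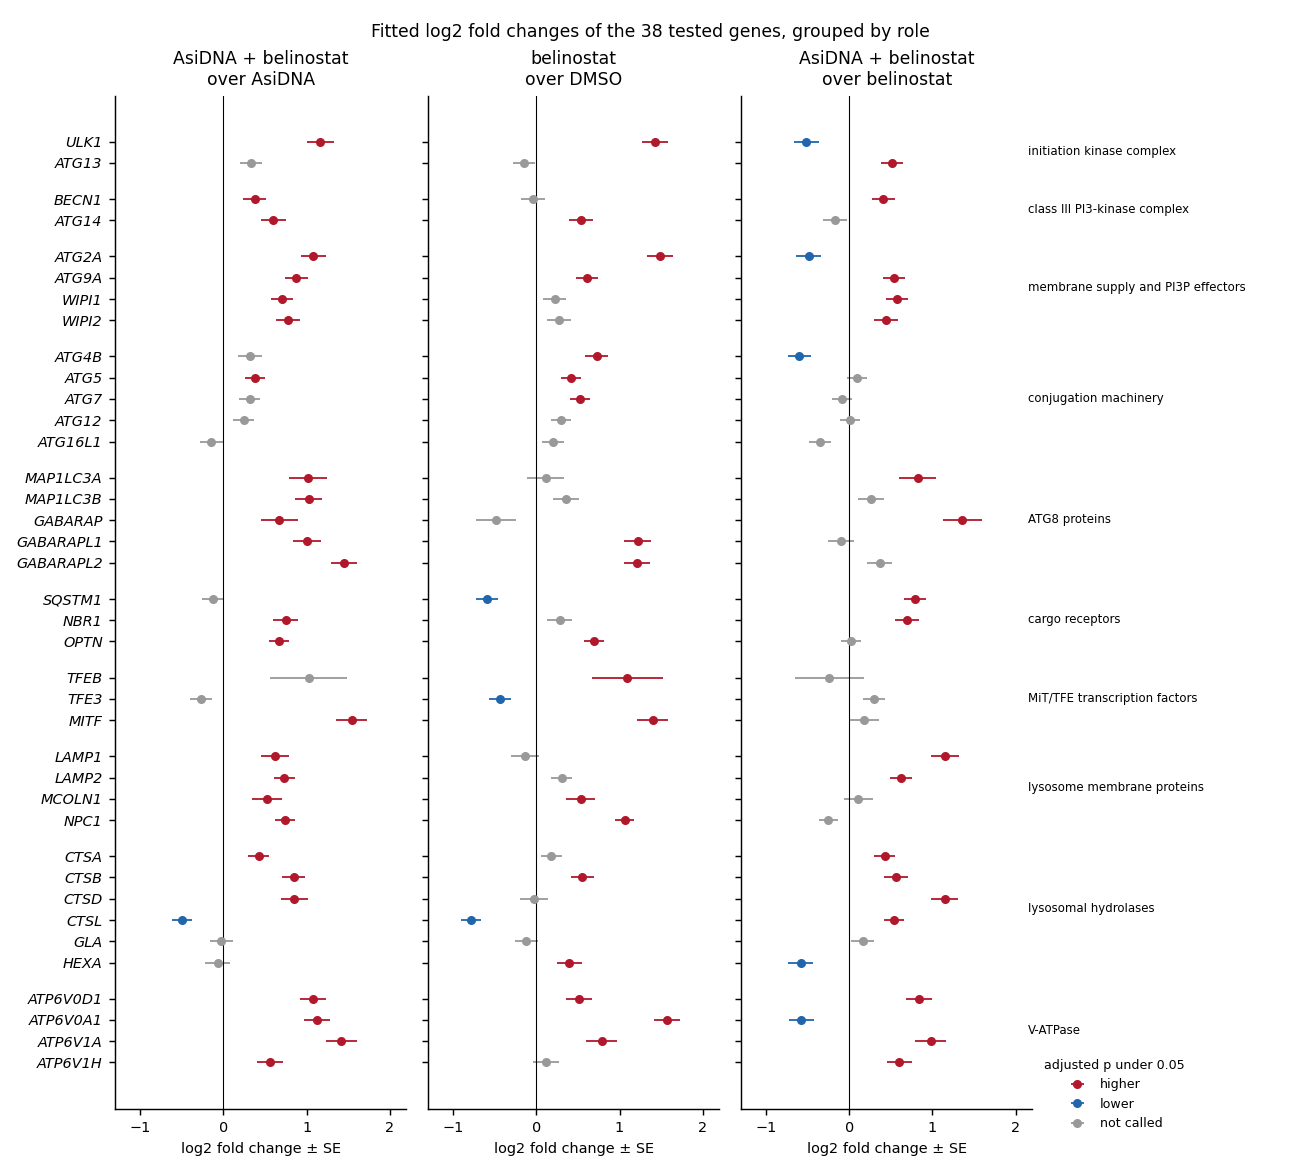
Fitted log2 fold changes (points, x axis) with their standard errors (bars) of the 38 tested genes in the combination over AsiDNA, in belinostat over DMSO, and in the combination over belinostat. Red points were called higher and blue points lower at an adjusted p under 0.05. In the left panel CTSL is the single blue point, while SQSTM1, TFE3 and CTSL are blue in the middle one.

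The belinostat effect was thus measured in 2 backgrounds that share no library. Of the 19 genes that belinostat raised over DMSO and the 27 raised in the combination over AsiDNA, 15 were the same, which is 78.9% of the first list and 55.6% of the second. Over all tested genes 2471 were called higher in both, 56.2% of the 4395 raised by belinostat over DMSO and 77.2% of the 3199 raised in the combination over AsiDNA. The 15 listed genes include ULK1, ATG2A, GABARAPL1, GABARAPL2, MITF, NPC1, ATP6V0A1 and ATP6V1A. Called in the combination over AsiDNA and not in belinostat over DMSO were 12 genes, BECN1, WIPI1, WIPI2, MAP1LC3A, MAP1LC3B, GABARAP, NBR1, LAMP1, LAMP2, CTSA, CTSD and ATP6V1H. Between these comparisons, ATG4B, ATG7, TFEB and HEXA were called only in belinostat over DMSO. The HEXA call (adjusted p = 0.0346, edgeR) was lost under 5 settings, DESeq2 among them, and without any 1 of 7 libraries. That of ATG7 was lost with no filter and with only the groups compared. The count for belinostat over DMSO, 22 in both directions, was 14 without belinostat replicate 1 and 14 without belinostat replicate 2, and the count for the combination over belinostat, 23, was 14 without belinostat replicate 2 and 14 without combination replicate 2, the last with 0 lower calls.

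Whether the belinostat effect differed between the backgrounds was tested as an interaction, the log2 fold change of the combination over AsiDNA minus that of belinostat over DMSO. With all libraries, 0 of the 38 genes were called, as were 0.00678% of all genes. At an unadjusted p under 0.05 there were 14 of the 38, beside 3203 of all 14741 genes, and DESeq2 called 2, beside 705 of all genes. The median difference was 0.24 over the 38 genes, with 24 above 0, beside -0.0007 over all genes. The largest differences were those of GABARAP (log2 1.16, SE 0.33, adjusted p = 0.0939), MAP1LC3A (0.91, SE 0.32, adjusted p = 0.135), CTSD (0.88, SE 0.23, adjusted p = 0.0849) and LAMP1 (0.76, SE 0.24, adjusted p = 0.108).

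This test turned on the DMSO libraries. Without DMSO replicate 2, 24 of the 38 were called, 19 higher and 5 lower, beside 34.6% of all genes, and without DMSO replicate 1, 2 of the 38 were called, beside 6.51% of all genes. CTSD and LAMP1 were called in both cases, with log2 differences of 1.07 and 1.05 without DMSO replicate 2 and of 0.67 and 0.43 without DMSO replicate 1. The 5 called lower without DMSO replicate 2 were ULK1, ATG2A, ATG4B, HEXA and ATP6V0A1. Which DMSO library is nearer to untreated U87 cells was not tested.

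**Figure D4:**
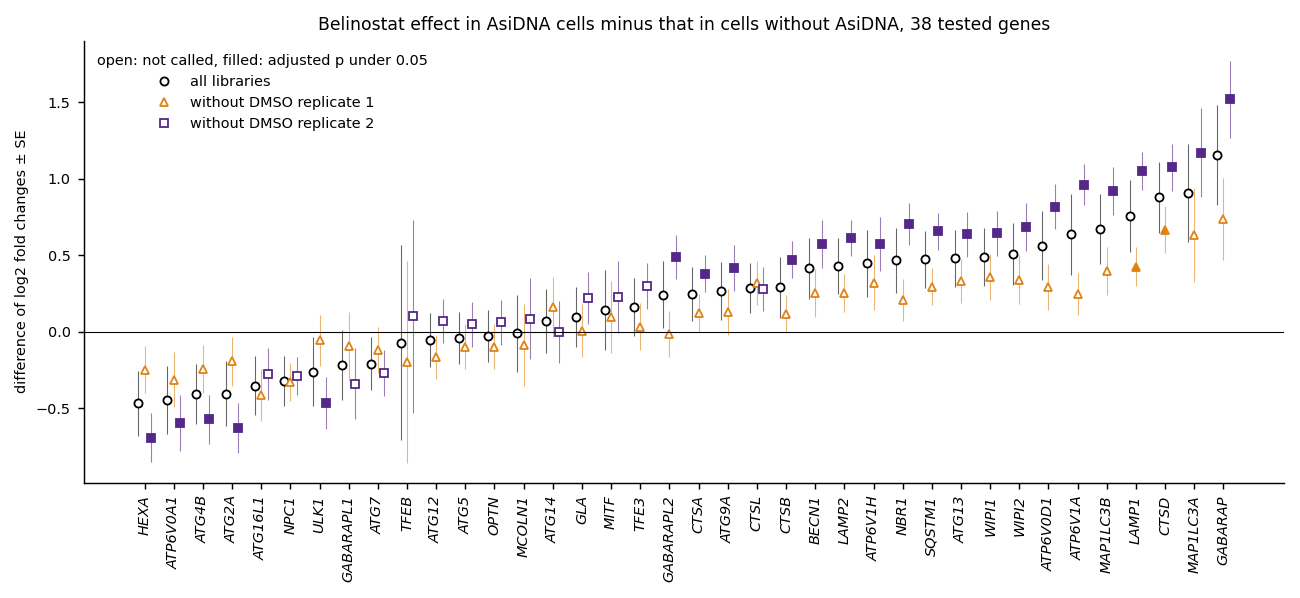
Belinostat effect in AsiDNA cells minus that in cells without AsiDNA (y axis, log2, bars are standard errors) for the 38 tested genes, fitted with all libraries and without each DMSO library. No point is filled with all libraries, CTSD and LAMP1 are filled without DMSO replicate 1, and 24 genes are filled without DMSO replicate 2.

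AsiDNA alone against DMSO was subject to the same dependence. With all libraries the log2 differences lay between MAP1LC3B at -0.41 and LAMP1 at 0.39. Without DMSO replicate 1, 13 of the 38 were called higher and 3 lower, beside 31.6% of all genes, and without DMSO replicate 2, 0 were called higher and 1 lower, beside 0.401% of all genes. The 1 lower was MAP1LC3B at -0.64. LAMP1 differed by 0.75 without DMSO replicate 1 and by 0.12 without DMSO replicate 2.

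The listed genes were also sorted by the order of the single libraries. Both combination libraries lay above all other 6 for 19 of the 38 genes, beside 15.4% of all tested genes, and below them for ATG16L1, beside 11.3%. Both belinostat libraries were above the other 6 for 9 genes, beside 24.5%, namely ULK1, ATG14, ATG2A, ATG4B, ATG7, ATG16L1, NPC1, HEXA and ATP6V0A1, and below them for SQSTM1, TFE3 and CTSL, beside 21.8%. Both AsiDNA libraries were above for SQSTM1 and CTSL, beside 8.82%, and below for ATG14 and MAP1LC3B, beside 7.31%. Both DMSO libraries were above for 0 genes, beside 4.93%, and below for 6, beside 6.58%.

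The 115 other tested genes of the same pathways gave more rises than falls in each comparison with belinostat. In the combination over AsiDNA 50 rose and 10 fell, with a median log2 fold change of 0.35. All tested genes gave 21.7% higher, 21.2% lower and a median of 0.02. In the combination over DMSO 51 rose and 10 fell, with a median of 0.37 (44 and 17 with scaling by library size alone). All genes there gave 24.3%, 23.7% and -0.01. In belinostat over DMSO 46 rose and 17 fell (median 0.22), beside 29.8% higher, 27.6% lower and a median of 0.06 over all genes. In the combination over belinostat 33 rose and 16 fell (median 0.19), beside 22%, 21.4% and -0.01. In AsiDNA over DMSO 0 were called by edgeR, beside 0.0204% of all genes, and 0 by DESeq2. At an unadjusted p under 0.05 in edgeR there were 6, beside 1674 of all 14741 genes. Of the 34 other hydrolases tested, 19 rose and 4 fell in the combination over AsiDNA. LGMN, the asparaginyl protease of the lysosome, had 75.6 and 73.7 CPM in the combination, 72.1 and 65.0 in belinostat, 21.8 and 22.2 in AsiDNA, and 24.2 and 23.5 in DMSO. It rose in the combination over AsiDNA (log2 1.76, SE 0.13, adjusted p = 5.72e-07) and in belinostat over DMSO (log2 1.53, SE 0.13, adjusted p = 7.1e-07), as did PSAP, the precursor of the saposins (log2 1.54 and 1.52).

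Other hydrolases went the opposite way. ARSB, a sulfatase, had 26.8 and 25.7 CPM in the combination, 15.8 and 13.3 in belinostat, 57.6 and 65.1 in AsiDNA, and 56.7 and 46.4 in DMSO. It fell by 1.22 on the log2 scale in the combination relative to AsiDNA and by 1.81 in belinostat relative to DMSO (adjusted p = 3.18e-05 and 9.85e-07). CTSS, a cathepsin best known from immune cells, fell by 1.05 and 1.49 in the same comparisons. For both genes the groups with belinostat lay below those without it, and belinostat alone lay lowest, as for CTSL.

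Of the 15 other V-ATPase genes tested, 9 rose and 1 fell in the combination over AsiDNA, beside 21.7% higher and 21.2% lower of all genes. ATP6V1B2, the partner of ATP6V1A in the catalytic ring, rose in the combination over AsiDNA (log2 1.14) and in belinostat over DMSO (log2 1.06), whereas ATP6V0A2, an alternative to ATP6V0A1, fell by 1.01 and 0.95. Among the receptors for mitochondria, BNIP3 rose by log2 1.01 in the combination over AsiDNA and 0.94 in belinostat over DMSO, and PINK1, the kinase that marks damaged mitochondria, by 1.04 and 0.66. PIK3C3, the catalytic lipid kinase of the BECN1 complex, rose by 0.95 and 1.02, and ATG2B, the relative of ATG2A, by 0.94 and 1.03. ULK3, a relative of ULK1, fell by 1.40 in the combination relative to AsiDNA and by 0.67 in belinostat relative to DMSO, the second call being lost without DMSO replicate 2 (adjusted p = 0.0549).

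Of 14 genes of nutrient signalling at the lysosome, 3 rose and 4 fell in belinostat relative to DMSO, beside 29.8% higher and 27.6% lower of all genes. In the combination relative to AsiDNA 3 rose and 2 fell, beside 21.7% and 21.2%. MTOR, the kinase that restrains autophagy and the MiT/TFE factors, fell by 0.39 in the combination relative to AsiDNA, a call lost without any 1 of these 4 libraries (adjusted p = 0.0683 to 0.177), and by 0.49 in belinostat relative to DMSO. RRAGB, a small GTPase that recruits mTORC1, had 8.66 and 11.6 CPM in the combination, 18.1 and 22.6 in belinostat, 9.04 and 9.44 in AsiDNA, and 6.05 and 9.33 in DMSO. It stood above the other groups in belinostat alone, 1.40 over DMSO on the log2 scale (SE 0.24, adjusted p = 0.00025), and was lower in the combination than in belinostat (log2 -0.99, adjusted p = 0.00574), a call lost without belinostat replicate 2 or combination replicate 1 (0.0854 to 0.0878). CD63, a tetraspanin of late endosomes, had 461 and 477 CPM in the combination, 231 and 239 in belinostat, 485 and 491 in AsiDNA, and 436 and 346 in DMSO, and thus fell in belinostat relative to DMSO (log2 -0.73, adjusted p = 0.000327) and rose in the combination over belinostat (log2 1.00, adjusted p = 0.000312), like SQSTM1.

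How far counts belong to the named gene could not be settled for all of them, since the strand setting of the authors' counting is not given in the sources used here. In GENCODE 29 on GRCh38, 6 of the 39 genes share exon sequence with another gene on the same strand (ATG9A, GABARAP, MCOLN1, CTSD, HEXA and ATP6V0A1), 17 with a gene on the opposite strand, and 5 have named pseudogenes (BECN1, ATG12, MAP1LC3B, SQSTM1 and CTSL). Their values are uncertain to that extent.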

How the data were processed

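The deposited table holds the authors' raw counts of reads for each gene in each library, without normalization. Tools named are cutadapt 1.16 for trimming, STAR 2.7.0 and featureCounts 1.6.3, with the build GRCh38, per the submitters' processing notes. The sources used here give neither the annotation release nor the strand setting. Everything else was computed here in R 4.3.3. Genes passing filterByExpr of edgeR 4.0.16 (14741) were scaled with TMM and all 8 libraries fitted together, 1 coefficient per group, leaving 4 residual degrees of freedom. The 6 comparisons used edgeR's quasi-likelihood F-test with Benjamini-Hochberg adjustment over all tested genes, and genes under 0.05 are termed called. The standard error is the absolute log2 fold change divided by the square root of F. Steps were tested on simulated data. Precision is limited by 2 libraries a group, and the 3-count limit covers counting error only.

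The 39 genes, the wider lists and the tests were chosen with earlier results of these data known. Full values are given for listed genes called with an absolute log2 fold change of at least 1 in belinostat over DMSO or in the combination over AsiDNA or belinostat, and for TFEB, TFE3, MITF, SQSTM1, MAP1LC3B, LAMP1 and CTSD. Of each wider list, up to 2 genes per direction with the smallest adjusted p in belinostat over DMSO could be named. Further listed genes, among them CTSL and CTSB, were named after their values were seen. Alternatives were RLE factors, library size alone, DESeq2 1.42.0, no filter, a filter of 1 CPM in 2 libraries, a replicate block, an adjusted p under 0.01, only the groups compared, and leaving out each library. Exon lengths came from GENCODE 29, promoters from RefSeq (GRCh38.p14).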

Additional observations from a re-analysis of the deposited data

How the results depend on the processing

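Counts were compared with those under other settings, and a count is described as moved where it differed by more than 1.5 times. For the 39 listed genes the 28 calls in the combination over AsiDNA lay between 20 and 34, and the 28 over DMSO between 20 and 32, when each library was left out in turn. The count for belinostat over DMSO (22) lay between 14 and 28 and was 14 with only the groups compared, that for the combination over belinostat (23) lay between 14 and 28, that for AsiDNA over DMSO (0) between 0 and 16 and that for the interaction (0) between 0 and 24. The interaction called 6 listed genes with no filter, 1 with the 1 CPM filter and 2 under DESeq2. For the other pathway genes the leave-one-out ranges were 0 to 41 (AsiDNA over DMSO), 36 to 72 (combination over AsiDNA), 27 to 71 (combination over belinostat) and 0 to 51 (interaction). Their interaction calls were 11 with no filter, 1 with the 1 CPM filter and 4 under DESeq2, the combination over belinostat had 32 at an adjusted p under 0.01, and AsiDNA over DMSO had 1 with no filter.

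Over all genes the leave-one-out ranges were 0 to 4955 (AsiDNA over DMSO), 4102 to 8247 (combination over AsiDNA), 3142 to 8477 (combination over belinostat) and 0 to 5358 (interaction). The interaction, 1 call in all, had 10 with RLE factors, 157 with library size alone, 1549 with no filter, 351 with the 1 CPM filter, 705 under DESeq2 and 0 at an adjusted p under 0.01. AsiDNA over DMSO, 3 calls in all, had 1 with library size alone, 520 with no filter, 28 under DESeq2, 0 at an adjusted p under 0.01 and 0 with only the groups compared. The combination over belinostat had 3804 at an adjusted p under 0.01. The cause of these moves was not tested.

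A change of sign was seen in 31 values of single genes, none of them called before or after. MAP1LC3A in belinostat over DMSO gave -0.0194 with library size alone and -0.0486 with no filter, MITF in AsiDNA over DMSO gave -0.017 and -0.0007 with the same settings, and TFEB in the interaction gave 0.0335 with no filter and 0.0005 with the 1 CPM filter. Leave-one-out log2 ranges that crossed 0 in AsiDNA over DMSO were ATG2A -0.27 to 0.15, ATP6V0A1 -0.25 to 0.0296, GABARAP -0.13 to 0.66, GABARAPL2 -0.10 to 0.41, MAP1LC3A -0.33 to 0.21, MITF -0.30 to 0.35 and TFEB -0.64 to 0.17. In belinostat over DMSO they were CTSD -0.35 to 0.18, LAMP1 -0.44 to 0.19 and MAP1LC3A -0.15 to 0.39. In the combination over belinostat they were GABARAPL1 -0.14 to 0.0744 and TFEB -0.70 to 0.17, and over DMSO TFE3 -0.26 to 0.0134. In the interaction they were GABARAPL2 -0.0132 to 0.49, MITF -0.15 to 0.51 and TFEB -0.52 to 0.42.

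Deviations of same-numbered libraries from their group means correlated at -0.37 to 0.23 over 8142 genes. The lowest value was that of the combination with DMSO and the highest that of belinostat with DMSO. Whether same-numbered libraries were prepared together cannot be decided from these values, since each group gives a single difference between its libraries. With the replicate number as a block, 23 listed genes were called for belinostat over DMSO. Without the block 22 were called there, beside 57.4% of all genes. Over all genes the block gave 5 calls for AsiDNA over DMSO and 19 for the interaction. The precision of every comparison is limited by 2 libraries a group.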
